A study of Mus musculus with 6 samples.

Results

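Mouse iPSC (induced pluripotent stem cells) made from peritoneal fibroblasts (PF) were set against iPSC made from tail tip fibroblasts (TTF). The comparison takes 4 of the 6 libraries of the series, chosen by the labelled parental cells, with 2 libraries a side. PF1 and TTF1 carry the label 4N+, and PF2 and TTF2 the label 4N-, which the labels do not explain. It was taken here, from general knowledge, to give the result of tetraploid complementation, in which a line must form an embryo inside a tetraploid host. All 4 lines carry H2A.X in their sample names, had a mixed 129Sv/C57 background and were at passage 25. The labels give them no genotype, so whether H2A.X is altered in them is not stated, and none sets the PF lines apart from the TTF lines. They were grown on feeders with LIF, moved to gelatin before lysis in Trizol, and sequenced as TruSeq mRNA libraries. The other 2 libraries, 129Sv embryonic stem cells (ESC) that are either Flox/Flox or Cre-deleted for H2A.X, serve here only as a level to set beside a gene.

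Each library is a separate line, so the spread within a side includes the 4N label and everything else in which 2 lines differ. The labels name no animal, no sex and no reprogramming vector. The 2 PF lines were deposited in one table and the 2 TTF lines in another, and the tables were presumably scaled separately. Parental cell type, line, table and any step shared within a table therefore cannot be told apart, and every difference reported is between these 2 pairs of lines.

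Reprogramming resets a somatic cell to a state that resembles the early epiblast, held by a network of transcription factors around Pou5f1, Sox2 and Nanog. Mouse pluripotent cells range from a naive state, kept by LIF and the Klf factors, to a primed state marked by Otx2 and Nodal signalling, and a rare fraction resembles the 2-cell embryo. iPSC lines are also known to vary in imprinted genes, in chromosome number and in traces of the donor cell's programme. The gene lists below follow these themes.

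Values are FPKM, in which fragment numbers are divided by transcript length and depth. Differences are on the log2(FPKM + 1) scale, PF minus TTF, after each library was shifted to a common median, and are given with their standard error from limma. On this scale the change of weakly expressed genes is understated. A gene was tested when at least 2 of the 4 libraries reached 1 FPKM, and called when its limma p, adjusted by Benjamini-Hochberg over all genes tested, was below 0.05. The libraries held 11002 to 11195 genes at 1 FPKM or more. Effective depth (in units of 1e6 fragments) was 44.4 in both PF libraries, 59.2 in TTF1 and 61.2 in TTF2. Depth thus differed between the sides, which matters most for genes near 0. Replicates correlated at r = 0.983 over genes for the PF pair and 0.994 for the TTF pair, and the 4 pairs across the sides at 0.958 to 0.965. The SD of the log2 differences was 0.31 between the PF lines, 0.18 between the TTF lines and 0.44 to 0.48 across. The lines carried the transcripts that define the label: Pou5f1 was at 266 FPKM or more and Dppa5a at 1020 FPKM or more in each of the 4.

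Of 11353 genes tested, 1304 were called higher in PF (11.5%) and 1148 lower (10.1%), so 21.6% were called in either direction. Each count of called list members below is to be set beside these shares. The PF and TTF values did not overlap for 7687 genes (67.7%). These calls depend on the TTF pair, whose libraries lie closest together. Without TTF1 the fit called 14 genes higher and 31 lower, and without TTF2 it called 8 higher and 23 lower, with 2341 and 2009 genes at an unadjusted p below 0.05. In those fits the spread is estimated from the PF pair alone, and the lone TTF library is assumed to vary as the PF lines do. Without PF1 the counts were 2493 and 2091, and without PF2 they were 2041 and 2173. Every gene called with all 4 libraries kept its direction in each of these fits that tested it, 2319 or 2324 genes a fit. Where the PF and TTF values of a gene do not overlap, leaving out a library cannot change its direction. For such genes the kept direction is therefore fixed in advance and is no check on the calls. In all 4 of these fits 27 genes were called, 8 higher in PF and 19 lower. With 2 lines against 2, an exact permutation test of a single value cannot give a p below 0.33, so none is given.

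**Figure D1:**
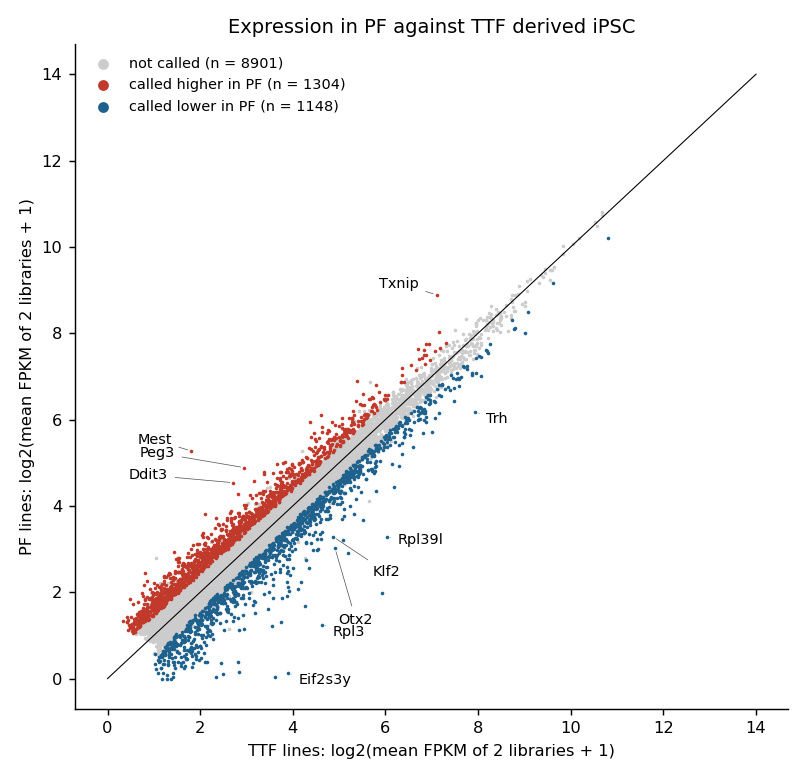
Each point is 1 of the 11353 genes tested, with the mean FPKM of the 2 TTF libraries on the horizontal axis and of the 2 PF libraries on the vertical axis, both as log2(mean + 1) of the deposited values. The line marks equal levels. Mest, Peg3, Ddit3 and Txnip lie above it among the 1304 genes called higher in PF, and Rpl3, Rpl39l, Trh, Otx2, Klf2 and Eif2s3y below it among the 1148 called lower.

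Pluripotency genes were lower in the PF lines for part of the list. The 4 largest differences were those of Klf2, Dppa3, Sall4 and Dppa2, and Pou5f1 and Zfp42 were called lower too, whereas Nanog, Sox2, Klf4 and Esrrb were not called. Of 29 members tested, all of them at 1 FPKM on both sides, 15 were called lower and 1 higher, beside 9.35% lower and 10.8% higher over the 10850 genes that reached 1 FPKM on both sides. The members' median difference was -0.46, against 0.03 over all genes tested. Without PF1 the list held 15 lower calls and without PF2 18, but without TTF1 only 2 and without TTF2 only 1.

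Klf2, a Krüppel-like factor of the naive state, showed the largest difference of the list. It stood at 9.28 and 8.22 FPKM in PF1 and PF2 and at 28.6 and 27.9 FPKM in TTF1 and TTF2. Both PF lines lay far under both TTF lines, by a difference of -1.60 ± 0.10 (adjusted p = 0.0028), and Klf2 is one of the 27 genes called whichever library was left out. Dppa3, a maternal factor that shields methylation marks in the zygote, was at 9.43 and 9.65 FPKM against 23.5 and 23.8 FPKM, a difference of -1.24 ± 0.12 (adjusted p = 0.0044). Sall4, a zinc-finger partner of Pou5f1, was at 16.0 and 17.5 FPKM against 41.5 and 38.7 FPKM, a difference of -1.22 ± 0.13 (adjusted p = 0.0061). In these 3 genes the lines of a side lay within a few FPKM of each other. Dppa2, a SAP-domain protein of early embryos, was at 20.9 and 17.3 FPKM against 39.8 and 47.6 FPKM (-1.17 ± 0.12, adjusted p = 0.0061); 29.1% of its 50-base words occur in other genes, so its values are less certain.

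Several factors outside the rule for naming genes were looked up after their values were seen. Pou5f1, the POU factor at the centre of the network, was at 266 and 279 FPKM in the PF lines and 424 and 454 FPKM in the TTF lines, a difference of -0.70 ± 0.13 (adjusted p = 0.015). Nanog, by contrast, was at 197 and 228 FPKM against 212 and 196 FPKM, so the sides overlapped. Sox2 stood at 119 and 85.7 FPKM against 120 and 102 FPKM, and Klf4 at 30.6 and 29.3 FPKM against 29.7 and 29.8 FPKM. None of these last 3 passed the test, with differences of 0.04 ± 0.15, -0.14 ± 0.15 and 0.00 ± 0.10. The 1 member called higher was Nr5a2, a nuclear receptor that binds the Pou5f1 gene, at 11.4 and 8.62 FPKM in PF and 6.15 and 5.76 FPKM in TTF (0.64 ± 0.13, adjusted p = 0.019).

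**Figure D2:**
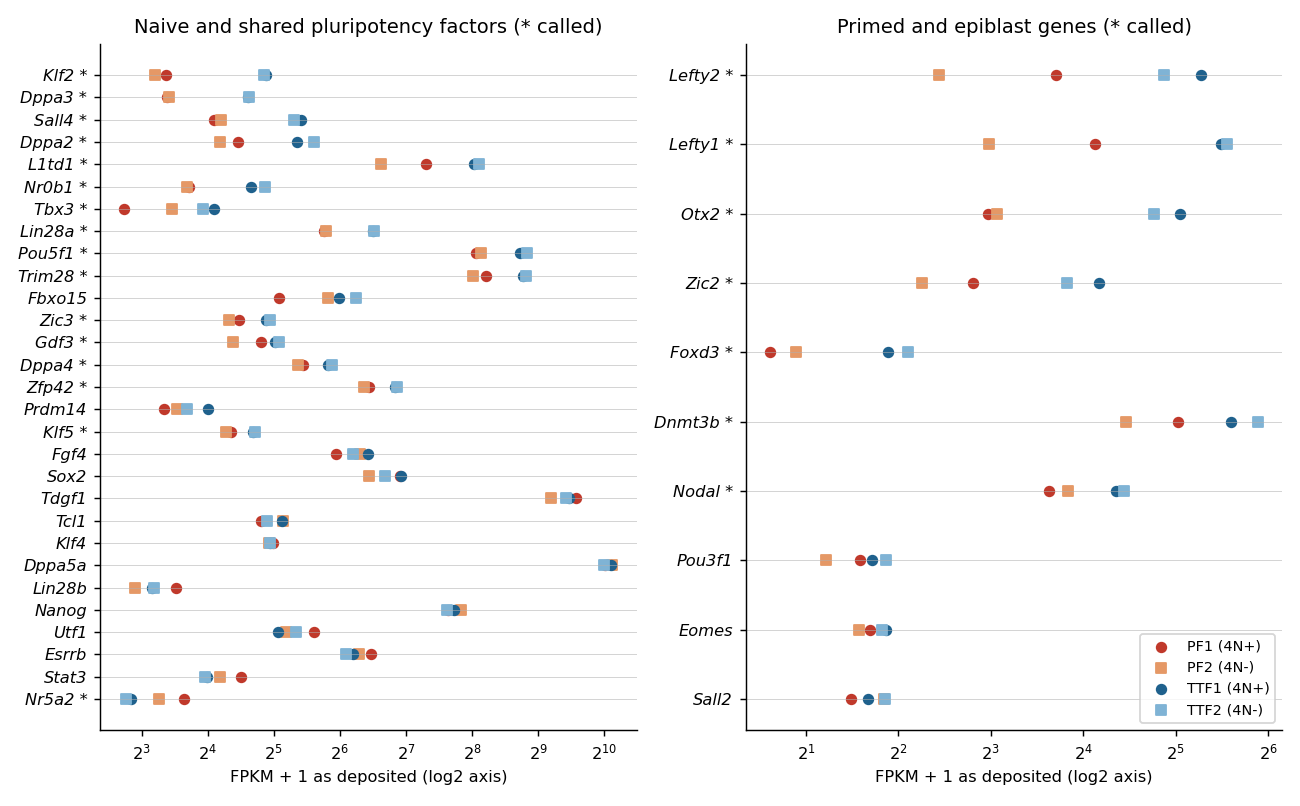
FPKM + 1 as deposited (log2 axis) of the 29 tested pluripotency genes and the 10 tested primed and epiblast genes, ordered by their difference from the lowest in PF, with 1 point per library. Red and orange points are the PF lines, dark and light blue points the TTF lines, circles the 4N+ lines and squares the 4N- lines. The PF points lie to the left for Klf2 to Trim28 and for Lefty2 to Nodal, while the 4 points run together for Klf4, Dppa5a and Nanog.

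Genes of the primed state and of Nodal signalling were also lower in the PF lines, as were Lef1 and Id3 of the Wnt and BMP pathways. Of 20 primed and epiblast genes 10 were tested, and 7 were called lower and none higher. Of the 9 that reached 1 FPKM on both sides, 6 were called lower, beside 9.35% over all such genes, with a median of -1.01. The 10 others were under 1 FPKM in all 4 libraries, among them Fgf5 of the primed epiblast and T and Mixl1 of early mesendoderm. Without TTF1 the list held 1 call and without TTF2 it held 2.

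Otx2, a homeobox factor that drives the exit from the naive state, was at 6.83 and 7.38 FPKM in the PF lines and 31.9 and 26.2 FPKM in the TTF lines. The TTF level was several times the PF level in each pair of lines, with a difference of -1.90 ± 0.15 (adjusted p = 0.0029), and Otx2 was called whichever library was left out. Nodal itself, the ligand, was at 11.4 and 13.3 FPKM against 19.4 and 20.8 FPKM (-0.67 ± 0.15, adjusted p = 0.024). Its feedback inhibitors Lefty1 and Lefty2, which are also its targets, differed more. Lefty1 stood at 16.5 FPKM in PF1, 6.89 in PF2, 43.9 in TTF1 and 46.0 in TTF2, a difference of -1.98 ± 0.29 (adjusted p = 0.010). Lefty2 stood at 12.01, 4.42, 37.5 and 28.2 FPKM in the same order, a difference of -2.01 ± 0.34 (adjusted p = 0.013). For both inhibitors PF2 was the lowest of the 4 lines.

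The other primed genes called lower were Zic2, Foxd3 and Dnmt3b. Zic2, a zinc-finger factor of the primed epiblast, was at 6.001 and 3.79 FPKM against 16.98 and 13.1 FPKM (-1.47 ± 0.18, adjusted p = 0.0080). Foxd3, a forkhead factor, was under 1 FPKM in both PF lines, at 0.53 and 0.86 FPKM, and at 2.69 and 3.29 FPKM in the TTF lines; it passed the filter through the TTF side only. Dnmt3b, a methyltransferase that sets new DNA methylation, was at 31.4 and 21.1 FPKM against 47.4 and 58.3 FPKM (-1.01 ± 0.17, adjusted p = 0.012). Its cofactor Dnmt3l was at 204 and 167 FPKM against 298 and 293 FPKM, a difference of -0.69 ± 0.11 (adjusted p = 0.012). Dnmt3a, the sister enzyme, was not called, with 23.9 and 11.4 FPKM against 21.2 and 26.1 FPKM.

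Among 20 tested Wnt, Nodal and BMP pathway genes, 6 were called lower and 4 higher, with a median of -0.15. Lef1, a transcription factor that Wnt signalling uses and induces, was at 3.62 and 2.50 FPKM in PF and 12.9 and 15.5 FPKM in TTF, a difference of -1.93 ± 0.15 (adjusted p = 0.0029). Id3, an inhibitor of basic helix-loop-helix factors and a BMP target, was at 2.62 and 2.95 FPKM against 12.01 and 15.5 FPKM (-1.97 ± 0.16, adjusted p = 0.0035). Both were called whichever library was left out, and they are the 2 calls left in this list without TTF1 or without TTF2. Tcf7l1, Etv5, Spry2 and Smad7 were the other genes called lower, by -1.14 to -0.75; Etv5 and Spry2 respond to FGF signalling, and Smad7 restrains TGF-beta signalling. Socs3, the feedback inhibitor that LIF and Stat3 induce, was called higher, at 53.5 and 41.4 FPKM against 19.4 and 20.5 FPKM (1.19 ± 0.12, adjusted p = 0.0052). Sfrp1, a secreted Wnt antagonist, Bmp7, a BMP ligand, and Acvr2b, an activin receptor, were the other 3 called higher, at 0.99 ± 0.20, 0.99 ± 0.17 and 0.49 ± 0.13.

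Genes of the 2-cell-like state were lower in PF wherever they could be tested. Most of this list is expressed at such low levels that it passed the filter through the TTF lines: 14 of 20 members in the table were tested, and 9 of the 14 were under 1 FPKM in both PF lines. Since those had to differ to be tested, the fit with no filter on low values was read instead, in which 16 of 20 members were called lower and none higher, beside 8.45% lower over 18631 genes. All 5 members at 1 FPKM on both sides were called lower. Zscan4d, of the Zscan4 cluster that 2-cell embryos switch on, was at 0.76 FPKM in PF1, 1.61 in PF2, 3.78 in TTF1 and 8.53 in TTF2, a difference of -1.67 ± 0.35 (adjusted p = 0.023). Tcstv3 was at 2.98, 5.58, 11.5 and 17.2 FPKM in the same order (-1.57 ± 0.30, adjusted p = 0.018), and Tcstv1 at 2.36, 6.58, 10.4 and 16.8 FPKM (-1.51 ± 0.42, adjusted p = 0.045). In all 3 the 4N- line of each parental type was above its 4N+ line. For 9 of the 14 tested members more than 20% of the 50-base words recur in other genes, up to 89.0% for Zscan4e and 98.9% for Gm4340, so reads of single copies cannot be assigned with certainty. No member was called without TTF1 or without TTF2.

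Germ cell genes went the same way for part of the list. Of 22 tested, 9 were called lower and 1 higher, beside 10.1% and 11.5% over all genes tested, with a median of -0.44. Tex19.1, which restrains retrotransposons in germ cells and placenta, was the largest difference, at 32.3 and 26.2 FPKM against 72.2 and 82.5 FPKM (-1.39 ± 0.12, adjusted p = 0.0035), and was called whichever library was left out. Taf7l, a germ cell variant of a general transcription factor, was at 2.06 and 3.20 FPKM against 6.83 and 7.74 FPKM (-1.22 ± 0.21, adjusted p = 0.014). Dazl, an RNA-binding protein of germ cells, was at 4.81 and 6.82 FPKM against 15.8 and 11.4 FPKM (-1.11 ± 0.23, adjusted p = 0.021). The others lower were Slc25a31, Rhox13, Mael, Sycp1, Hormad1 and Brdt, at -1.09 to -0.51. Dmrt1, a testis-determining factor, was the 1 called higher, at 8.42 and 8.34 FPKM against 3.99 and 5.51 FPKM (0.71 ± 0.16, adjusted p = 0.026). Without TTF1 or without TTF2 the list kept 1 lower call.

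Trophoblast markers were lower in part. Of 14 trophoblast genes tested 8 were called lower and none higher. Of the 13 at 1 FPKM on both sides 7 were lower, beside 9.35% over all such genes, with a median of -0.79. The 2 tested members above 0, Esx1 (0.51 ± 0.20) and Ascl2 (0.32 ± 0.15), were not called. Another 8 members were under 1 FPKM in all 4 libraries, among them the transcription factors Cdx2, Elf5, Gata2, Gata3 and Gcm1. Lgals3, a galactose-binding lectin, was at 2.95 and 3.53 FPKM in PF and 18.1 and 14.3 FPKM in TTF (-2.03 ± 0.17, adjusted p = 0.0035), and was called whichever library was left out. The epithelial keratins Krt7, Krt8 and Krt18 were all lower: Krt18 was at 13.4 and 14.9 FPKM against 28.1 and 38.5 FPKM (-1.18 ± 0.17, adjusted p = 0.010). The X-linked homeobox genes Rhox6 and Rhox9 were lower at -1.89 ± 0.36 and -1.44 ± 0.25 (adjusted p = 0.017 and 0.014), with PF2 the lowest line for both. Plac1 (-1.39) and Peg10 (-0.50) were the remaining calls; Plac1 passed through the TTF lines only. Without TTF1 the list held 3 calls and without TTF2 it held 1.

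Primitive endoderm genes did not move together. Of 8 tested, Srgn, Cubn and Dab2 were called lower and Lamc1 higher. Srgn, a proteoglycan core protein also made by blood cells, was at 0.49 and 0.12 FPKM against 4.38 and 7.64 FPKM, and both Srgn and Cubn passed the filter only through the TTF lines. Lamc1, the laminin gamma chain of basement membranes, was at 43.0 and 48.5 FPKM against 21.4 and 21.0 FPKM (1.06 ± 0.13, adjusted p = 0.0082). Its partner chains Lama1 and Lamb1 were not called, at 0.15 ± 0.15 and -0.25 ± 0.12. No member of the list was called without TTF1 or without TTF2. No gene was called among 8 tested neural genes and 3 tested mesoderm genes, whose medians were 0.28 and 0.05.

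**Figure D3:**
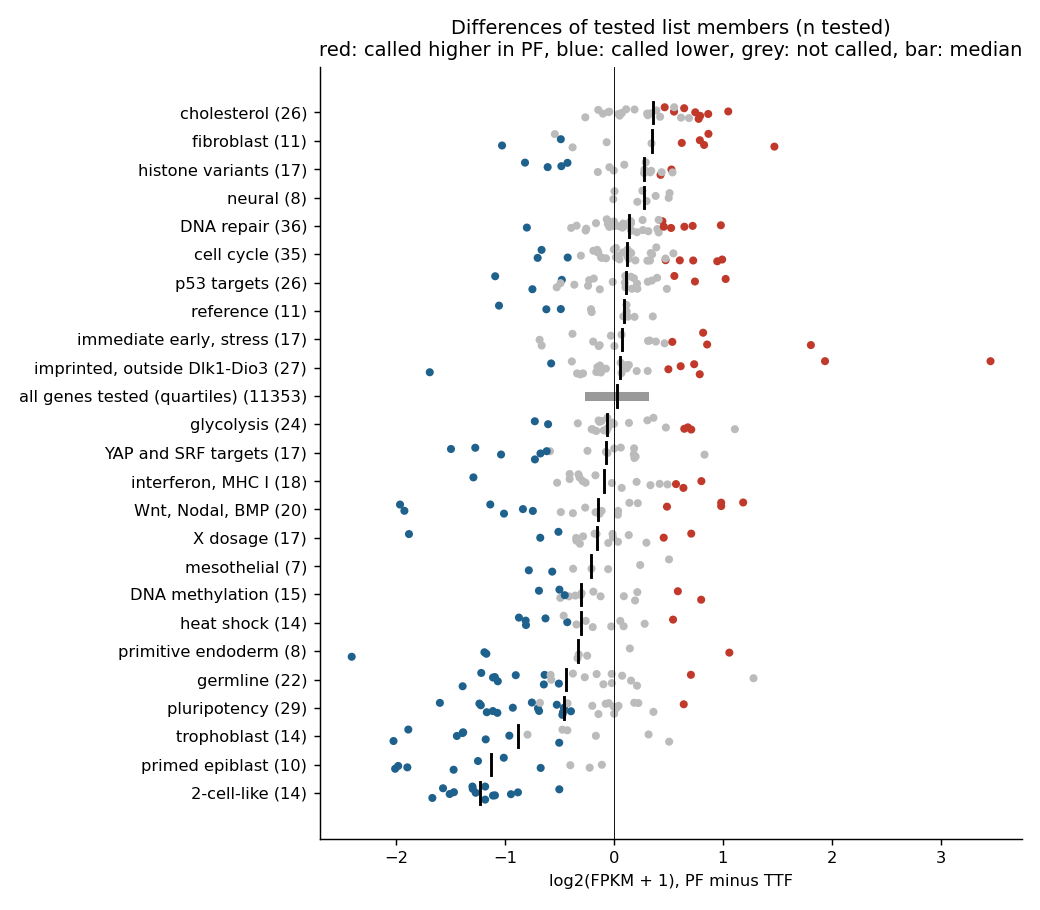
Differences on the log2(FPKM + 1) scale, PF minus TTF, of the tested members of each list with 7 or more tested, with 1 point per gene; red points were called higher in PF, blue lower and grey not called, and the black bar is the median. The grey band gives the middle 50% of all 11353 genes tested. The 2-cell-like, primed epiblast, trophoblast and pluripotency lists have the lowest medians, from -1.23 to -0.46, and the cholesterol list the highest, 0.36. Of the 14 genes behind the 2-cell-like median 9 were tested through the TTF lines only, where they are high, so its place in this order is no result.

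Imprinted genes, which are expressed from 1 parental copy, held the largest difference among the named genes. Mest, a maternally imprinted gene of the alpha/beta hydrolase family (chromosome 6, table locus 30688063 to 30846760 on mm9, an interval that also spans neighbouring genes), was at 31.7 FPKM in PF1, 43.6 in PF2, 1.86 in TTF1 and 3.15 in TTF2. Both PF lines were near the level of the ESC libraries (27.8 FPKM in Flox/Flox and 32.3 FPKM in the knockout), and both TTF lines were far under it. The difference was 3.46 ± 0.24 (adjusted p = 0.0029), 10.99-fold on this scale, and Mest was called whichever library was left out. Peg3, a paternally expressed zinc-finger gene on chromosome 7 (6658671 to 6683130), was at 20.9 and 36.3 FPKM against 4.46 and 8.99 FPKM, a difference of 1.94 ± 0.36 (adjusted p = 0.016), with 67.5 FPKM in the Flox/Flox ESC. Apeg3, an antisense transcript given the same locus, followed it, at 4.10 and 9.22 FPKM against 1.06 and 2.36 FPKM (1.44 ± 0.39, adjusted p = 0.041); strand use is not stated, so reads of this pair cannot be told apart. For both transcripts the 4N- line was the higher of each pair of lines.

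Igf2, the paternally expressed fetal growth factor, went the other way, at 2.45 and 4.998 FPKM in PF and 11.3 and 16.3 FPKM in TTF (-1.69 ± 0.31, adjusted p = 0.016). H19, the maternally expressed RNA beside Igf2, was not called, at 6.62 and 3.61 FPKM against 4.59 and 6.73 FPKM. Of 27 imprinted genes tested outside the Dlk1-Dio3 region, 6 were called higher and 2 lower, with a median of 0.06, so the list as a group lay near all genes. Trappc9, Commd1, Slc22a18 and Ppp1r9a were the other genes higher, at 0.79 to 0.50, and Snrpn, a splicing protein gene of the Prader-Willi region, was lower, at -0.58 ± 0.12 (adjusted p = 0.019). Grb10 and Nnat split by line rather than by parental type: Nnat was at 1.44 FPKM in PF1, 7.94 in PF2, 4.93 in TTF1 and 2.28 in TTF2. Without TTF1, and likewise without TTF2, only Mest was called.

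In the Dlk1-Dio3 region the 4N label, not the parental cell type, went with the level. Meg3, a maternally expressed long RNA, was at 44.1 FPKM in PF1 and 28.04 in TTF1 but 0.19 in PF2 and 1.52 in TTF2. The PF and TTF values overlap, and the difference between parental types was -0.24 ± 1.68 (adjusted p = 0.93). Rian, the snoRNA host RNA beside it, was at 58.1, 0.20, 39.5 and 2.31 FPKM in PF1, PF2, TTF1 and TTF2. Among the 4N- lines both RNAs were lower in PF2 than in TTF2.

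**Figure D4:**
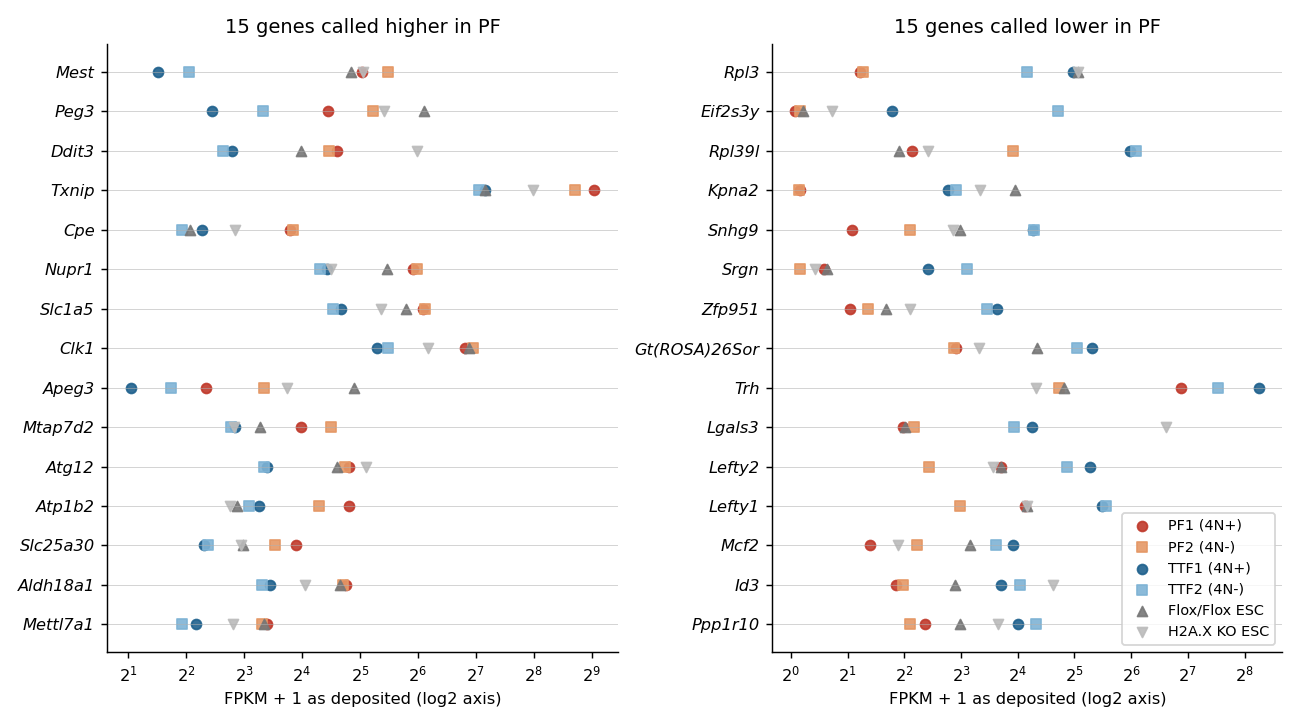
FPKM + 1 as deposited (log2 axis) of the 15 genes with the largest differences called higher in PF (left) and the 15 called lower (right), with 1 point per library: red and orange for the PF lines, blue for the TTF lines, and grey triangles for the ESC libraries, which come from a separate table. For Peg3 both ESC libraries lie above the PF points, while for Rpl39l and Snhg9 they lie well below the TTF points.

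The list of immediate early and stress genes did not shift as a whole, but a few of its members were far higher in PF. Of 17 tested, 4 were called higher (Ddit3, Asns, Ddit4 and Ier3) and none lower, with a median of 0.07. Ddit3 encodes CHOP, a transcription factor made under endoplasmic reticulum and amino acid stress, and stood at 23.3 and 21.2 FPKM in PF and 5.92 and 5.23 FPKM in TTF, a difference of 1.81 ± 0.12 (adjusted p = 0.0028). Asns, asparagine synthetase, was at 261 and 260 FPKM against 149 and 136 FPKM (0.86 ± 0.12, adjusted p = 0.0094). Ddit4, which restrains mTOR, was at 90.4 and 86.0 FPKM against 53.3 and 45.3 FPKM (0.82 ± 0.12, adjusted p = 0.010). In all 3 the lines of a side lay close together. Atf4, the activator of the amino acid response, was at 119 and 87.8 FPKM against 83.5 and 79.5 FPKM and was not called (0.31 ± 0.13, adjusted p = 0.12). Other genes of that response were not called either: Trib3 was at -0.03 ± 0.12, Chac1 at -0.19 ± 0.24 and Atf3 at 0.07 ± 0.15. Without TTF1, and likewise without TTF2, Ddit3 was the only call of the list.

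Further genes with large differences lie outside that list. Nupr1, a small stress-induced chromatin protein, was at 59.5 and 62.5 FPKM in PF and 20.6 and 18.8 FPKM in TTF (1.57 ± 0.12, adjusted p = 0.0029). Slc1a5, the glutamine carrier, was at 66.8 and 68.8 FPKM against 24.6 and 22.2 FPKM (1.49 ± 0.12, adjusted p = 0.0032). Both were called whichever library was left out. Aldh18a1, an enzyme of proline synthesis, was at 26.3 and 25.0 FPKM against 9.97 and 8.87 FPKM (1.34 ± 0.12, adjusted p = 0.0035), and was called without TTF1 but not without TTF2. Sesn2, a p53 and stress target, went the other way, at 8.07 and 11.1 FPKM against 20.7 and 21.6 FPKM (-1.09 ± 0.19, adjusted p = 0.014).

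Atf4 and CHOP act on a shared sequence, the C/EBP-ATF response element, whose core was searched for as TGATGNAA on both strands in RefSeq promoters (GRCm38.p6, 250 bases before to 50 after each start). The 36 genes searched were the 15 named genes higher in PF and the 22 listed stress genes, with Ddit3 in both, and 26 of them matched a RefSeq promoter by symbol. The core was in 7 of the 26, and in 2 of the 12 matched genes called higher, Nupr1 and Asns. Over the 27025 genes with a promoter it is in 4.51%. Of the genes that hold the core, only Nupr1 is among the 15 named genes. The others come from the stress list, which by choice holds genes of the amino acid response, so a share above 4.51% is no result. The stretches around the core are shown for the 2 called genes and for Atf3 and Chac1, which hold it and were not called. Capitals mark the core or its reverse complement, and each runs 5′ to 3′ on the gene's strand.
Asns (chr6:7693210-7693272, minus strand): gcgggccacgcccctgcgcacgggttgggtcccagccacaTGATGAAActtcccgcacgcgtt
Nupr1 (chr7:126625533-126625620, minus strand): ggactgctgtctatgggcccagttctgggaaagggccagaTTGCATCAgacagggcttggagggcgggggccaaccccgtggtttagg
Atf3 (chr1:191183396-191183483, minus strand): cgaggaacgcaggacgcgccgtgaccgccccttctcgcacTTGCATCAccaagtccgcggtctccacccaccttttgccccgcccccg
Chac1 (chr2:119351009-119351096, plus strand): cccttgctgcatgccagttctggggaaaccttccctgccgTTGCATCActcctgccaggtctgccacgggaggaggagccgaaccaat
Nupr1, Atf3 and Chac1 hold the same 8 letters, and Asns holds another form of the core. The core thus stands in promoters of genes that were and were not called, and a match is a description, not a site of binding.

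The other named genes higher in PF have varied roles. Txnip, which binds thioredoxin and responds to glucose, was the most abundant, at 527 and 420 FPKM against 141 and 132 FPKM (1.77 ± 0.12, adjusted p = 0.0029). Clk1, a kinase of splicing factors, was at 111 and 123 FPKM against 38.1 and 43.5 FPKM (1.49 ± 0.14, adjusted p = 0.0044). Cpe, carboxypeptidase E, was at 12.8 and 13.4 FPKM against 3.83 and 2.83 FPKM (1.70 ± 0.16, adjusted p = 0.0044), and lies on chromosome 8. Txnip, Clk1, Cpe and the autophagy gene Atg12 (1.39 ± 0.11) were called whichever library was left out. Mtap7d2, Atp1b2, Slc25a30 and Mettl7a1 completed the 15, with differences of 1.298 to 1.43; of these Atp1b2 and Mettl7a1 were still called without TTF1, and none of the 4 without TTF2. The next 3 in rank, just outside the 15, were Cntd1 (1.29), Palm3 (1.28) and Neil3 (1.26).

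The largest differences lower in PF came from genes of unlike roles. Rpl39l, a paralog of a ribosomal protein expressed in germ cells, was at 3.41 FPKM in PF1, 14.02 in PF2, 62.0 in TTF1 and 66.9 in TTF2 (-3.02 ± 0.53, adjusted p = 0.015), and at 2.77 and 4.35 FPKM in the ESC libraries. Trh, the thyrotropin-releasing hormone gene, was at 116, 25.5, 305 and 185 FPKM in the same order (-2.11 ± 0.58, adjusted p = 0.045), with a wide gap between the PF lines. Gt(ROSA)26Sor, the transcript of the Rosa26 locus, was at 6.54 and 6.38 FPKM against 38.7 and 32.0 FPKM (-2.29 ± 0.13, adjusted p = 0.0020). The Rosa26 transcript was called whichever library was left out, and the Flox/Flox ESC, at 19.2 FPKM, lay between the sides. The snoRNA host Snhg9, the zinc-finger gene Zfp951, the exchange factor gene Mcf2 and the phosphatase subunit gene Ppp1r10 differed by -2.69, -2.36, -1.97 and -1.94. Zfp951 and Ppp1r10 were called whichever library was left out, while Rpl39l, Trh, Snhg9 and Mcf2 were not called without TTF1 or without TTF2, and Trh was also lost with quantile normalization. The next 3 in rank were Lef1, Otx2 and Rhox6.

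Values of 2 named genes are uncertain. Rpl3, a ribosomal protein that every cell needs, was listed at 1.32 and 1.40 FPKM in PF and 30.4 and 16.9 FPKM in TTF, and 33.7% of its 50-base words recur elsewhere in the transcript annotation. Kpna2, an importin, was at 0.12 and 0.10 FPKM against 5.84 and 6.57 FPKM, with 62.6% of its words shared. Krt8 (26.9%), Etv5 (24.5%), Hormad1 (22.9%) and Dppa5a (38.6%), named above, also share more than 20% of their words, so their values are less certain. Rpl3 was called whichever library was left out, and Kpna2 was not tested without TTF1 or without TTF2. Whether the 2 tables divided reads between copies in the same way was not tested.

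Genes of cholesterol and fatty acid synthesis were higher in part. Of 26 tested 8 were called higher and none lower, beside 11.5% higher over all genes tested. Their median was 0.36 (0.43 for PF1 minus TTF1 and 0.25 for PF2 minus TTF2). Stard4, a carrier of cholesterol between membranes, was at 19.2 and 15.1 FPKM in PF and 8.63 and 6.71 FPKM in TTF (1.05 ± 0.15, adjusted p = 0.0097). The regulators Srebf2 and Insig1 were higher at 0.55 ± 0.10 and 0.65 ± 0.13 (adjusted p = 0.017 and 0.022). The other calls were Scd1, Sc4mol, Mvd, Tm7sf2 and Pmvk, at 0.87 to 0.47, while Sqle (-0.10 ± 0.12) and Fdps (-0.14 ± 0.13), also of the pathway, were not called. Mvd and Sc4mol lie on chromosome 8 and the other 6 do not. Without PF2 17 members were called higher, without PF1 8, and without TTF1 or without TTF2 none.

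Most members of the lists that bear on the parental cells were too low to test. Hox genes, which keep a positional code in fibroblasts, were nearly silent: 37 of 38 were under 1 FPKM in all 4 libraries. Hoxc13, a posterior gene, reached 1 FPKM only in PF2, at 1.99 FPKM. Hoxb13, another posterior gene, was at 0.12 and 0.28 FPKM in PF and 0.76 and 0.84 FPKM in TTF. In the limma fit with no filter on low values it was the 1 listed Hox gene called (-0.60, adjusted p = 0.0063). All its values were under 1 FPKM, and whether they reflect a retained positional code was not tested. None of the mesothelial genes, which mark the lining of the peritoneum, was called higher in PF. Of 7 tested, 2 were called lower and 5 were not called, beside 10.1% lower over all genes tested. Krt19 was lower, at 6.82 and 6.90 FPKM against 13.6 and 11.3 FPKM (-0.78 ± 0.14, adjusted p = 0.014), and Lrrn4 as well (-0.57 ± 0.16, adjusted p = 0.045). The 2 tested members above 0, neither called, were Rspo1 and Calb2. Rspo1 was at 1.35 and 1.87 FPKM against 0.60 and 1.05 FPKM (0.51 ± 0.20), and Calb2 differed by 0.24 ± 0.24. Wt1, the mesothelial transcription factor, was at 0.30 to 1.02 FPKM.

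Of the genes of dermal and tail mesenchyme few could be tested, and none was called higher in the TTF lines. Of 4 tested 3 were called higher in PF; Twist1 passed the filter through the PF lines only, which leaves 2 called of the 3 at 1 FPKM on both sides. Crabp1, a retinoic acid binding protein, was at 39.4 and 40.9 FPKM in PF and 21.4 and 21.3 FPKM in TTF (0.87 ± 0.12, adjusted p = 0.0088). Prrx2 and Twist1, transcription factors of mesenchyme, were expressed at a low level and differed by 0.52 ± 0.13 and 0.50 ± 0.13 (adjusted p = 0.033 and 0.041). The remaining 16 listed genes were under 1 FPKM in all 4 libraries. Neither the mesothelial nor the dermal list held a call without TTF1 or without TTF2.

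Fibroblast markers, shared by the parental cells and the feeders, summed to 343 FPKM in PF1, 188 in PF2, 254 in TTF1 and 219 in TTF2. In each line the largest values were those of Fn1, Vim and Sparc. The Flox/Flox ESC also held these transcripts, at 79.8, 8.37 and 60.2 FPKM, so the sums are no measure of fibroblast RNA. Of the 30 listed, 8 were under 1 FPKM in all 4 libraries. Of 11 tested 5 were called higher in PF and 2 lower, but Fbln2 and Pdgfrb passed the filter through the PF lines only. Of the 9 at 1 FPKM on both sides 3 were higher and 2 lower, with a median of -0.07. Fbln2, a matrix protein, was at 6.79 and 2.13 FPKM against 0.72 and 0.81 FPKM (1.47 ± 0.34, adjusted p = 0.028), and Thy1, Mmp2, Timp2 and Pdgfrb were also higher. Of these Mmp2 lies on chromosome 8. Tagln, a smooth muscle actin-binding protein, was lower, at 10.9 and 7.58 FPKM against 19.3 and 19.6 FPKM (-1.03 ± 0.13, adjusted p = 0.0084), as was Sparc. PF1 stood apart for the defining fibroblast genes: Col1a2 was at 5.41 FPKM in PF1 and 0.02 to 0.15 FPKM in the other 3 lines, Col1a1 at 2.12 against 0.19 to 0.23 FPKM, and S100a4 at 40.1 against 0.15 to 0.66 FPKM. Lum was at 0 in all 4. Without PF1, 3 fibroblast genes were called higher and 5 lower, and without TTF1 or without TTF2 no fibroblast or macrophage gene was called. Whether fibroblast RNA in PF1 contributes to other differences was not tested. In bulk RNA, fewer cells of a type and less RNA per cell cannot be told apart. Of 17 macrophage genes, 14 were under 1 FPKM in all 4 libraries, among them Emr1, Lyz2 and Tyrobp, at 0 in all 4. Of the 3 tested, Laptm5 was lower in PF (-0.98 ± 0.28, adjusted p = 0.049), and Cd68 and Cd74 were not called. The list summed to 17.9, 26.8, 44.9 and 36.5 FPKM in PF1, PF2, TTF1 and TTF2, with Cd68 and Laptm5 the largest values in each. These 2 genes were at 11.55 and 10.9 FPKM in the Flox/Flox ESC, so the sums are no measure of macrophage RNA.

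Y-linked transcripts were near 0 in the PF lines and differed between the TTF lines. Eif2s3y, a translation initiation subunit gene on the Y chromosome, was at 0.06 and 0.12 FPKM in PF1 and PF2, 2.46 in TTF1 and 25.3 in TTF2. Ddx3y, an RNA helicase gene, was at 0.05, 0.02, 1.36 and 6.795 FPKM in the same order. Both passed the filter through the TTF lines only, and their calls (adjusted p = 0.037 and 0.029) describe a side whose own lines lie far apart. Xist, which silences 1 X chromosome in female cells, was at 0.38 to 0.62 FPKM in the 4 lines. Of 17 tested X-linked dosage genes, Dusp9 (0.71 ± 0.14, adjusted p = 0.018) and Atrx were higher in PF and Klhl13, Ddx3x and Kdm6a lower. Klhl13 was at 29.3 FPKM in PF1, 11.8 in PF2, 78.8 in TTF1 and 64.2 in TTF2 (-1.88 ± 0.32, adjusted p = 0.014). None of the listed X dosage genes was called without TTF1 or without TTF2, and the listed Y genes were not tested there.

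Genes of chromosome 8 were higher in the PF lines along its whole length. The median difference of its 625 tested genes was 0.34, with 0.27 for PF1 minus TTF1 and 0.39 for PF2 minus TTF2, and 83.4% of the genes were above 0. The medians of the other 19 chromosomes were between -0.14 and 0.14. On chromosome 8, 209 genes were called higher (33.4%) and 16 lower (2.56%), while on the others 2.47% to 18.2% were called higher. Each of the 7 stretches of 20 Mb along it had a median between 0.29 and 0.39. Set against the Flox/Flox ESC, from another table, chromosome 8 had medians of 0.32 in PF1 and 0.52 in PF2 and of 0.05 and 0.07 in TTF1 and TTF2. Klf2 and Zfp42, both lower in PF, are on this chromosome, and of the 1304 genes higher in PF 1095 are not.

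A few other chromosomes differed in PF1 but not in PF2. Chromosome 17 had a median of -0.34 for PF1 minus TTF1 and 0.05 for PF2 minus TTF2. Of its 567 genes 91 were called lower (16.05%) and 14 higher (2.47%), beside 10.1% and 11.5% over all genes tested. Chromosomes 6 and 11 had medians of 0.23 and 0.22 for PF1 minus TTF1 and of 0.06 and 0.01 for PF2 minus TTF2. With each library centred within each chromosome, an alternative chosen after seeing the data, 1528 genes were called higher and 1345 lower. Under it every gene named here as called kept its direction, and all of them but Ppp1r9a stayed called. DNA content was not measured, so a change in chromosome number was not tested.

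**Figure D5:**
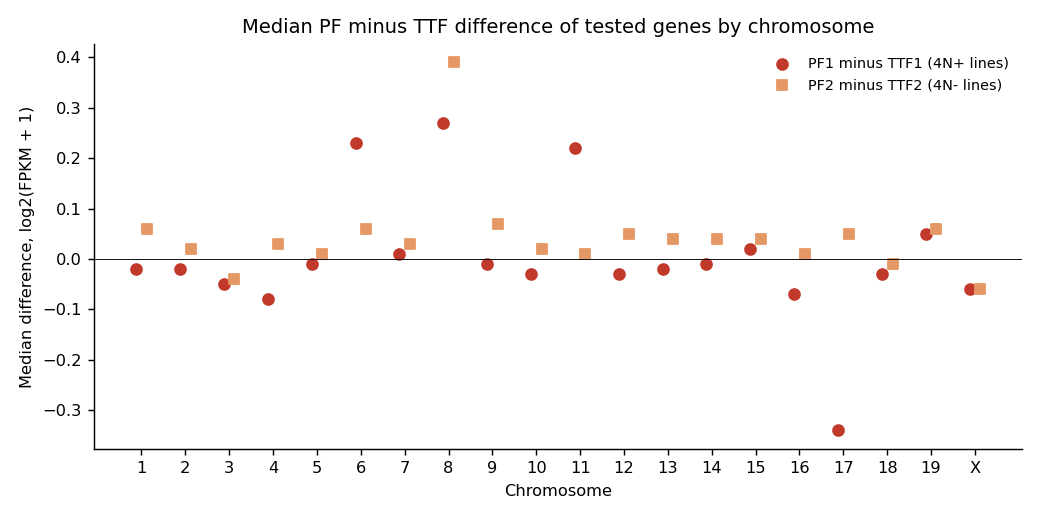
Median difference on the log2(FPKM + 1) scale of the tested genes of each chromosome, with circles for PF1 minus TTF1 (the 4N+ lines) and squares for PF2 minus TTF2 (the 4N- lines). Chromosome 8 is raised in both pairs, at 0.27 and 0.39, while chromosomes 6, 11 and 17 depart from 0 in the 4N+ pair and lie at 0.06, 0.01 and 0.05 in the 4N- pair.

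The remaining lists had medians between -0.30 and 0.28. Over all genes tested 11.5% were called higher and 10.1% lower, and several of the counts that follow lie near those shares. DNA repair genes had 6 of 36 called higher and 1 lower, with a median of 0.14: Fanca, a Fanconi anaemia core gene, was at 16.4 and 20.9 FPKM against 8.46 and 9.14 FPKM (0.98 ± 0.17, adjusted p = 0.015), Brca1 was at 0.72 ± 0.11 (adjusted p = 0.010), and Nhej1, a factor of end joining, was lower at -0.80 ± 0.13 (adjusted p = 0.012). Cell cycle genes had 5 of 35 called higher and 3 lower, and of the 34 at 1 FPKM on both sides 4 higher. Mki67, a coat protein of mitotic chromosomes, was higher (0.99 ± 0.10, adjusted p = 0.0055), and the inhibitor locus Cdkn2a was at 14.7 and 9.60 FPKM against 5.46 and 5.82 FPKM (0.95 ± 0.16, adjusted p = 0.013), whereas the replication helicase subunits Mcm3 and Mcm4 were lower. Histone variant and chaperone genes had 2 of 17 higher, the macroH2A genes H2afy and H2afy2, and 4 lower, the chaperone genes Daxx, Asf1a, Chaf1a and Hira. Heat shock genes had 1 of 14 higher and 5 lower; the chaperone Hsph1 was at 34.9 and 26.9 FPKM against 52.5 and 55.6 FPKM (-0.81 ± 0.12, adjusted p = 0.0099). YAP and SRF targets had 6 of 17 lower and none higher (5 of the 16 at 1 FPKM on both sides), with a median of -0.07, led by Myof (-1.50 ± 0.17, adjusted p = 0.0077) and Ctgf (-1.27 ± 0.14, adjusted p = 0.0064).

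Interferon and MHC class I genes had 3 of 18 higher (2 of the 17 at 1 FPKM on both sides) and 1 lower, the membrane protein gene Ifitm1, at 52.2 and 50.4 FPKM against 151 and 105 FPKM (-1.29 ± 0.18, adjusted p = 0.0096). Glycolysis and hypoxia genes had 3 of 24 higher (Hk1, Eno3 and Car9) and 2 lower (Egln3 and Slc16a3), with Car9 tested through the PF lines only. Genes of p53 and its targets had 3 of 26 higher and 3 lower; Trp53 itself was at 79.2 and 48.8 FPKM against 97.8 and 111 FPKM (-0.75 ± 0.18, adjusted p = 0.032) and Gadd45b, a growth arrest gene, at 17.7 and 18.2 FPKM against 8.91 and 7.59 FPKM (1.03 ± 0.13, adjusted p = 0.0083). DNA methylation genes had 2 of 15 higher, Uhrf2 and Mbd4, and 3 lower. Of 11 genes often used as references 3 were called lower: Actb, beta-actin, was at 307 and 201 FPKM against 505 and 522 FPKM (-1.06 ± 0.16, adjusted p = 0.011), and Tubb5 and Polr2a were also lower. In these remaining lists, Ifitm1 without TTF2 was the only call left when TTF1 or TTF2 was left out.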

How the data were processed

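Messenger RNA was sequenced in 1 library per line. Reads passed through CASAVA and TopHat2 on mm9, per the submitters' processing notes. Not given in the sources used here are the quantifying program, all versions, the annotation and whether strand was used. The FPKM values of the 2 PF lines and of the 2 TTF lines were deposited by the authors in 2 tables over the same 22558 gene names, and were joined here by gene. Table loci are printed 1-based on mm9. Small RNA genes (724 names starting Mir, Snor, Scarna or Rnu) were left out. Each library's log2(FPKM + 1) was shifted, by -0.09 to 0.07, to a common median over 6649 genes at 5 FPKM or more in all 4 libraries. limma 3.58.1 in R 4.3.3 (trend, no block, 2 residual degrees of freedom per gene) tested genes at 1 FPKM or more in at least 2 libraries, with Benjamini-Hochberg adjustment, and was checked on simulated data. Effective depth was read from the smallest steps between values of intronless receptor genes; it is not the number of mapped reads, and spliced lengths are unknown, so no count test was run.

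The members and the 31 gene lists (690 genes) were chosen with earlier results of these data known. A few genes are not reported here and were left out of the lists. Lists were described by counts and medians, with no test. The rule for named genes took the 15 largest differences per direction among called genes with a mean of 5 FPKM in the higher group, groups that do not overlap and no clone name; up to 4 members of a list with the largest differences; and all called members of a list with up to 10 called. Shared 50-base words come from GENCODE M21 transcripts. Alternatives changed the pseudocount, filter, scaling, small RNA genes, block and trend, and left out each library.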

Additional observations from a re-analysis of the deposited data

Results flagged for a closer look

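In 5 lists the median PF minus TTF difference had opposite signs in the 4N+ and the 4N- lines, and in none was the difference between the 2 pairs tested. In 2 of them the median was at least 0.1 from 0 in both pairs. The Dlk1-Dio3 imprinted RNAs Meg3 and Rian had a median of 0.49 for PF1 minus TTF1 and of -1.2 for PF2 minus TTF2. The 26 tested genes of p53 and its targets had a median of -0.13 for PF1 minus TTF1 and of 0.24 for PF2 minus TTF2. In the other 3, the medians for PF1 minus TTF1 and PF2 minus TTF2 were -0.33 and 0.07 for DNA methylation genes, -0.12 and 0.03 for interferon and MHC class I genes, and -0.06 and 0.17 for the mesoderm genes. With 2 lines a side, no group was large enough to look for single outlying lines.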

How the results depend on the processing

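Counts of called genes (higher, then lower in PF) were 1370 and 1169 with a pseudocount of 0.1, 1676 and 1574 with no filter on low values, 867 and 866 at 5 FPKM, 1339 and 953 with no shift, 1264 and 1263 with quantile normalization, 1062 and 968 with small RNA genes kept, and 1289 and 1087 without the trend. Leaving out 1 library gave 8 to 2493 higher and 23 to 2173 lower. The replicate number marks the 4N label, and the samples share only that number: PF1 minus PF2 and TTF1 minus TTF2 correlated at r = 0.025 over 11353 genes. With the replicate block, 1350 genes were called higher and 1196 lower. With chromosome 8 left out, chosen after seeing the data, the counts were 1153 and 946.

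No named gene that was called changed direction in any of these alternatives. In the fits that left out a library, the direction could not change for genes whose PF and TTF values do not overlap. For those genes these fits are no check on direction. Calls near the threshold were lost for Laptm5, Peg10, Mcm4, Scd1, Tm7sf2, Trh, Timp2, Acvr2b and Chaf1a with quantile normalization; for these but Acvr2b, and for Apeg3, Eif2s3y, Sparc, Egln3, Lrrn4, Slc22a18, Tcstv1 and Tubb5, with small RNA genes kept; for Zfp42, Atrx, H2afy, Hira, Pmvk, Polr2a, Sparc, Mcm4 and Peg10 with no shift; for Laptm5, Peg10 and Scd1 with no trend (and Mcm4) or a filter on the mean (and Tm7sf2); for Chaf1a, Laptm5, Lrrn4, Mcm4, Peg10 and Tcstv1 without chromosome 8; for Laptm5 with a pseudocount of 0.1; for Ppp1r9a centred by chromosome; and for Twist1 with the block. Without TTF1 113 and without TTF2 118 of the named called genes lost their call.

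Directions changed only for genes that were not called. Klf4 became 0.009 with no shift, 0.038 with quantile normalization, 0.025 without chromosome 8 and 0.105 centred by chromosome. Trib3 became 0.0 without chromosome 8 and 0.014 centred by chromosome, Nanog -0.094 centred by chromosome, and Dppa5a -0.095 with quantile normalization. Leaving out 1 library moved Atf3 from -0.051 to 0.197, Chac1 from -0.580 to 0.201, Dppa5a from -0.134 to 0.142, Grb10 from -1.14 to 0.528, H19 from -0.441 to 0.123, Klf4 from -0.054 to 0.052, Lama1 from -0.033 to 0.331, Meg3 from -2.78 to 2.31, Nanog from -0.141 to 0.230, Nnat from -0.947 to 1.09, Rian from -3.20 to 2.26, Sox2 from -0.293 to 0.014, Trib3 from -0.101 to 0.046. The causes were not tested. Differences of genes under 1 FPKM are limited by depth.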

Other observations

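Families of genes that share the start of their symbol were counted after the data were seen, and were given no test. Genes named Zfp, mostly zinc-finger transcription factors, had 65 of 300 called lower in PF (21.7%, beside 10.1% over all genes tested) and 14 higher, with a median of -0.14. Genes of ribosomal proteins had 7 of 44 (Rpl, 15.9%) and 7 of 42 (Rps, 16.7%) called lower and 1 higher in each. The Ddx RNA helicases had 9 of 37 lower (24.3%) and 2 higher. The Polr subunits of RNA polymerases had 6 of 27 lower (22.2%) and 1 higher. The Taf subunits of general transcription factors had 6 of 23 lower (26.1%) and none higher. Genes named Rbm had 9 of 31 lower (29.0%) and 1 higher. Genes named Zscan had 7 of 15 lower (46.7%) and none higher, but Zscan4a, Zscan4c, Zscan4d, Zscan4e and Zscan4f are among these calls. Those copies share 49.6% to 89.0% of their 50-base words with other genes, so they are not separate members. Zscan4c, Zscan4e and Zscan4f were under 1 FPKM in both PF lines and were tested through the TTF lines only. The Zscan share is therefore no result. Transporters named Slc had 36 of 189 called higher (19.05%) and 17 lower (9.0%). Membrane proteins named Tmem had 30 of 144 higher (20.8%) and 16 lower (11.1%), beside 11.5% higher over all genes tested. The families given are a selection. Shared words were not measured for these families as a whole, so how many of their genes carry the limit given for Rpl3 is not known.

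Among the genes called whichever library was left out were several outside the 15 per direction, picked out after their values were seen. Pim2, a kinase that supports survival, was at 7.60 and 6.07 FPKM in the PF lines and 20.3 and 23.4 FPKM in the TTF lines. Fmr1nb, an X-linked testis gene, was at 21.1 and 17.7 FPKM against 56.3 and 53.4 FPKM, and Enox1 at 6.26 and 3.48 FPKM against 19.11 and 19.4 FPKM. The zinc-finger genes Zfp459, Zfp428 and Zfp386 were lower in PF as well, Zfp386 at 2.01 and 2.10 FPKM against 9.60 and 10.5 FPKM.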
